A study of Homo sapiens with 6 samples.

Results

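The transcripts described here encode the general splicing machinery: serine and arginine-rich splicing factors (SRSF), heterogeneous nuclear ribonucleoproteins (HNRNP), proteins of the small nuclear ribonucleoproteins (SNRP), the SF3A and SF3B subunits (SF3), the PRPF pre-mRNA processing factors, the Sm-like proteins (LSM) and both subunits of U2AF. Members were taken by gene symbol alone, as one of these stems followed by a number or letter, and pseudogene symbols were left out. The rule found 84 of 59074 rows: 12 SRSF, 23 HNRNP, 12 SNRP, 9 SF3, 13 PRPF, 13 LSM and 2 U2AF genes. HNRNPA2B1 and SNRNP70 do not match these stems and are no members.

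RNA was sequenced from LN-229, T98G and U251 cells, established human glioblastoma lines, 72 h after transfection with a pool of siRNAs against the long non-coding RNA HOTAIRM1 (siHOTAIRM1) or a non-target pool (siControl). There was 1 library per line and condition, 6 in all, so that the knock-down was compared within each line and the 3 lines served as replicates. All libraries came from transient transfection of cultured cells. The p-values of the knock-down rest on the spread of the change between these 3 lines, moderated with that of genes of similar level. Those of differences between lines rest on the spread left after line and condition, moderated in the same way. Values are CPM, read counts scaled by the reads of each library, and a change is log2(CPM + 1) of the siHOTAIRM1 library less that of the siControl library, a scale that understates the change of low genes.

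Library depth, recovered from the smallest steps of the values, ranged from 52.3 M reads in the U251 siControl library to 104 M reads, and a count of 3 reads corresponded to between 0.0289 and 0.0574 CPM. HOTAIRM1 fell by 0.54 on the log2 scale (SE 0.123, limma adjusted p = 0.0146), from 1.99 to 0.952 CPM in LN-229, from 3.49 to 2.15 CPM in T98G and from 1.27 to 0.623 CPM in U251. It was lower in 3 of 3 lines, and the call was lost with libraries centred on their medians (limma adjusted p = 0.170), with equal totals of listed genes (0.234), without the filter on level (0.667), without the replicate block (close to 1), with the trend with transcript length removed (0.0577), and in the fits without LN-229 (0.0711) or T98G (0.435). Of 7 glial and glioblastoma markers, VIM and CD44 were above 250 CPM in every library, whereas T98G held SOX2 under 3 reads and listed S100B at 0. NES was at 0.956 and 0.866 CPM in T98G, against 329 to 507 CPM in the other lines. GFAP was at 42.5 and 20.7 CPM in U251 but at 0.317 CPM or less in LN-229 and T98G, and OLIG2 was at 1.69 CPM or less in every library. The neuronal marker SNAP25 was at 5.55 to 8.46 CPM in LN-229 and T98G and at 0.689 and 0.524 CPM in U251. RBFOX3, the other neuronal marker looked at, had 1 read or less in every library. Of the endothelial markers, CDH5 was at 2.83 and 1.30 CPM in U251, and PECAM1 was at 0.523 CPM or less in every library. The leukocyte marker PTPRC and the epithelial markers EPCAM and CDH1 were at 0.248 CPM or less in every library. The 84 members together made up between 0.926 and 1.26% of the signal on listed genes. The U251 siControl library stood apart: its 10 most abundant genes held 23.1% of the listed signal, against 13.3 to 16.4% in the others, and the abundant small RNA RN7SL1 reached 60589 CPM, against 11862 to 27894 CPM. LN-229 had a median change of 0.01, T98G of -0.19 and U251 of -0.03 over the 14294 genes whose mean reached 1 CPM, so changes per line are also given relative to these medians.

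Introns are removed by the spliceosome, whose small nuclear ribonucleoproteins (snRNPs) mostly carry a ring of Sm proteins around a small nuclear RNA. The U6 particle carries a ring of LSM proteins instead. U1 pairs with the 5′ splice site, U2AF marks the 3′ splice site, and U2 with its SF3A and SF3B subunits pairs with the branch site before the U4, U5 and U6 particles, which contain PRPF and LSM proteins, join. SR proteins and hnRNPs bind exons and introns and tune which sites are used. A second LSM ring, with LSM1 in place of LSM8, acts in the cytoplasm in mRNA decay.

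The upstream sequence of 5 members on which the results below turn is shown 5′ to 3′ on the gene's strand, from RefSeq on GRCh38.p14 and without exonic bases. SF3B6 and LSM3 had the largest decreases in U251, HNRNPH1 and SRSF11 the largest increases there, and SNRPB2 one of the largest differences between lines. Capitals mark the ETS-type core CCGGAAG, the CCAAT box, the GC box GGGCGG, the TATA element TATAAA or the E-box CACGTG, each on either strand. These 5 motifs were chosen with the values known, and no marked match overlaps another.
SF3B6: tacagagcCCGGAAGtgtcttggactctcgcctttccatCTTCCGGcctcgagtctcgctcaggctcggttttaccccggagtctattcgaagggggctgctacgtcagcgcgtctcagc
LSM3: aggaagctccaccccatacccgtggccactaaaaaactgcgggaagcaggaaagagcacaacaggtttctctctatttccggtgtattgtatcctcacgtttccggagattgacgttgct
HNRNPH1: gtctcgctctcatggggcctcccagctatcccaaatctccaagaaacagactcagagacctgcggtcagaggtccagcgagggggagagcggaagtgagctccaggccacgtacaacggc
SRSF11: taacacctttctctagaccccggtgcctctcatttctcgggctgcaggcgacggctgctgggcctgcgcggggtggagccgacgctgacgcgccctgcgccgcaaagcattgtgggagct
SNRPB2: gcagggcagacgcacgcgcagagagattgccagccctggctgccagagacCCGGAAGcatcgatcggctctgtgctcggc

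The windows lie at chr2:24076374-24076493 on the minus strand for SF3B6, chr3:14178697-14178816 on the plus strand for LSM3, chr5:179634785-179634904 on the minus strand for HNRNPH1, chr1:70221250-70221369 on the plus strand for SRSF11 and chr20:16729881-16729960 on the plus strand for SNRPB2. CCGGAAG stood within 250 bases upstream of the start in 22 of the 69 members that passed the filter on level and had a RefSeq window (31.9%), against 16.5% of 9458 tested genes and 8.82% of all 27305 windows. By family it was found in 7 of 11 SNRP, 6 of 8 SF3, 1 of 2 U2AF, 2 of 9 PRPF, 2 of 10 SRSF, 3 of 19 HNRNP and 1 of 10 LSM windows. CCAAT occurred in 44.9% of the members' windows (35.8% of tested genes), GGGCGG in 60.9% (67.2%), TATAAA in 8.70% (5.22%) and CACGTG in 10.1% (8.93%). A match describes the letters of the window and is not a shown binding site.

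Members were abundant. The 80 that passed the filter of a mean of 1 CPM had a median level of 17.2 CPM per kilobase of canonical transcript, averaged over the 6 libraries, against 4.56 CPM per kilobase over 13129 tested genes with a known length. U2AF had the highest family median level, 39.0 CPM per kilobase, followed by SRSF with 33.7, SNRP with 25.9, SF3 with 23.9, HNRNP with 21.1, PRPF with 11.9 and LSM with 8.59 CPM per kilobase. Both U2AF genes lay above every PRPF and LSM member, and every other pair of families overlapped in range. With the median length of coding transcripts in place of the canonical length, the SRSF median (55.0 CPM per kilobase) was above that of U2AF (36.1).

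**Figure D1:**
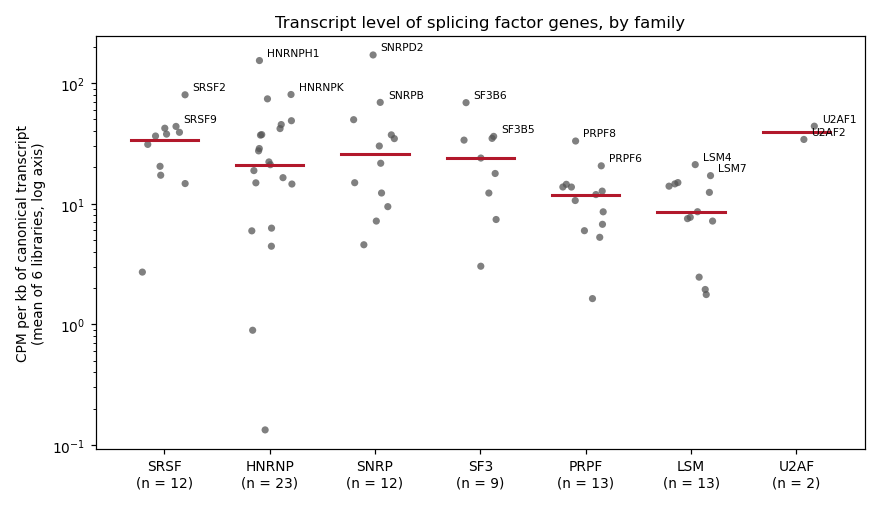
Level of each member, as CPM per kilobase of canonical transcript on a log axis (mean of 6 libraries), by family. Points are genes and red bars are family medians over all members, from 39.0 for U2AF to 8.59 for LSM, and 3 members under 0.05 CPM per kilobase (HNRNPCL3, HNRNPCL4 and SRSF12) are not drawn.

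The leading member of each family differed in kind. SNRPD2, a subunit of the Sm ring, was highest of all at 171 ± 98.1 CPM per kilobase (SD, n = 6 libraries), followed by HNRNPH1, which binds runs of guanosines, at 154 ± 23.8 CPM per kilobase. SRSF2 led the SR proteins with 80.0 ± 14.9, SF3B6 the SF3 subunits with 68.8 ± 62.8 and U2AF1 was at 43.9 ± 16.8 CPM per kilobase. PRPF8, the scaffold of the U5 particle, had 33.1 ± 3.69 and LSM4, which sits in both LSM rings, 21.1 ± 12.0 CPM per kilobase. The large SDs of SNRPD2, SF3B6 and LSM4 came with high values in U251. HNRNPCL3, HNRNPCL4 and SRSF12 were under 3 reads in every library, and these 3 genes with HNRNPCL2, at 0.0809 to 0.222 CPM, were the 4 members that did not pass the filter.

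The knock-down was then compared across the 3 lines. Of the 80 members tested, 1 passed the test, SF3B6, which fell, and no member rose (limma, 3 pairs). Over all 14294 genes, 1.59% were called lower and 0.413% higher, so the members' count lay near the background. A further 5 members had an unadjusted p under 0.05, all with lower fitted values: LSM3, SNRPD2, SNRPG, LSM2 and LSM1. With SF3B6 these are 7.50% of the members, whereas 2622 of all genes (18.3%) had an unadjusted p under 0.05.

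SF3B6 is a small subunit of SF3B that lies against the branch site in the U2 particle. It lies at chr2:24067586-24076373 on the minus strand of hg38. Its level went from 34.9 to 27.1 CPM in LN-229, from 19.2 to 12.8 CPM in T98G and from 124 to 51.2 CPM in U251. The siHOTAIRM1 library was thus lower in 3 of 3 lines, although the U251 siHOTAIRM1 value still exceeded both values of every other line. The log2 change was -0.72 (SE 0.155, limma adjusted p = 0.00919), with -0.35 for LN-229, -0.55 for T98G and -1.26 for U251. The intervals from read counting alone (95%) were -0.43 to -0.29, -0.70 to -0.46 and -1.33 to -1.22 for the log2 ratio of CPM. The call was lost once each library was centred on its median (limma adjusted p = 0.156), after rescaling to equal totals of listed genes (0.226), without the filter on level (0.667), without the replicate block (close to 1), and in the fits without T98G (0.549) or without U251 (0.439). With the ordinary paired statistic per gene in place of limma, the adjusted p was 0.637. Leaving out each line gave fitted changes from -0.90 to -0.45, the smallest without U251.

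The 5 further members each had their highest change in LN-229 and their lowest in U251. LSM3, a subunit of both LSM rings, gave 22.7 and 22.8 CPM in LN-229, 18.6 and 14.1 CPM in T98G, and 49.4 and 24.1 CPM in U251 (siControl and siHOTAIRM1). The LN-229 values were nearly equal, and the U251 siHOTAIRM1 value was about as high as those of LN-229 (fitted log2 change -0.46, SE 0.157, limma adjusted p = 0.108). SNRPD2 gave 70.6 and 74.2 CPM in LN-229, 57.0 and 41.7 CPM in T98G, and 183 and 103 CPM in U251. It was therefore higher in LN-229 and lower in the other two lines (fitted log2 change -0.40, SE 0.159, limma adjusted p = 0.171). Without U251 the fitted change was -0.18 for LSM3 and -0.19 for SNRPD2, and without LN-229 it was -0.69 and -0.63. LSM3 passed the threshold beside SF3B6 with a pseudocount of 0.1, with a filter at 5 CPM or once the trend with transcript length was removed.

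At the other end, SRSF11, an SR-related protein, had the highest fitted change of all members. Its level was 109 and 118 CPM in LN-229, 142 and 154 CPM in T98G, and 81.0 and 133 CPM in U251. The siHOTAIRM1 value was higher in 3 of 3 lines, and the change did not pass the test (log2 change 0.31, SE 0.160, limma adjusted p = 0.296), and without U251 the fitted change was 0.11. HNRNPH1 gave 330 and 336 CPM in LN-229, 366 and 333 CPM in T98G, and 268 and 432 CPM in U251, and HNRNPH3, which resembles it, went from 21.7 to 34.5 CPM in U251. Both moved by 0.14 or less on the log2 scale in LN-229 and T98G, and their fitted changes were 0.19 (SE 0.188, limma adjusted p = 0.621) and 0.20 (SE 0.150, limma adjusted p = 0.478).

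**Figure D2:**
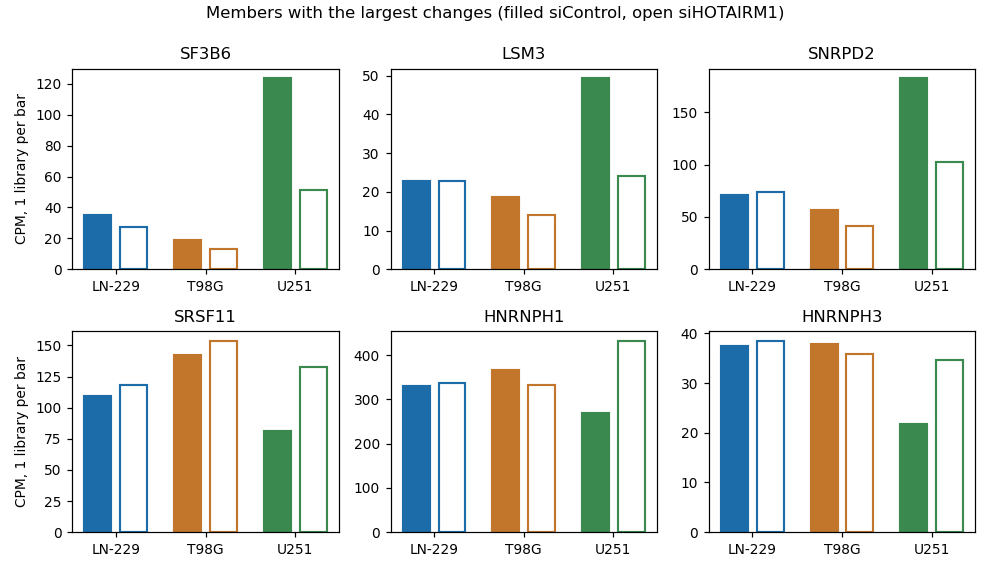
CPM of 6 members in each library, 1 bar per library, siControl filled and siHOTAIRM1 open. SF3B6, LSM3 and SNRPD2 were lower and SRSF11, HNRNPH1 and HNRNPH3 higher in the U251 siHOTAIRM1 library, with smaller differences in LN-229 and T98G.

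Within single lines there was no replicate, so a change of at least 0.5 on the log2 scale relative to the median of all genes was used as a description, and no test was possible. In LN-229 no member was past it, where 1.07% of all genes were lower and 1.42% higher. In T98G no member was past it either, where 1.85% of all genes were lower and 2.26% higher. In U251, 9 of 80 members were lower and 7 higher. Since 10.7% of all genes were lower and 7.54% higher there, these counts were near the background. Just inside the limit in U251 were SNRPB2 at -0.51 and LSM14B at 0.56, and just outside were LSM7 at -0.48 and LSM14A at 0.41.

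The members past this limit in U251 are named with their values known, and nothing is read from their families, since the counts were near the background. The 9 lower members were SF3B6, LSM3, SNRPD2, SNRPG, LSM1, LSM5, SF3B5, LSM2 and SNRPB2. The 7 higher members were SRSF11, HNRNPH1, HNRNPH3, PRPF38B, HNRNPM, SRSF4 and LSM14B. U251 is the line whose siControl library stood apart in RN7SL1 and in its most abundant genes, and the part of this in the U251 changes was not tested.

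Family medians of the change, relative to all genes, were small in LN-229, between -0.04 for SRSF and 0.07 for U2AF. In T98G the SNRP median was -0.18, with 10 of 12 members below the median of all genes, and the SF3 median was -0.13 with 6 of 9 below. SNRPN, under the limit of 3 reads in T98G, counted as above at 0.17 only because the line median was subtracted. HNRNP had 0.03 with 14 of 20 above, and the medians of SRSF, PRPF, LSM and U2AF lay between -0.10 and 0.02. In U251 the families lay further apart: SRSF had 0.29 with 7 of 11 members above, HNRNP 0.23 with 15 of 20, U2AF 0.21 with 2 of 2 and PRPF 0.18 with 9 of 13, against -0.29 for LSM with 8 of 13 below, -0.17 for SNRP with 10 of 12 and -0.04 for SF3 with 6 of 9. The SF3 median in U251 turned to 0.04 after rescaling to equal totals of listed genes. Over the lines, the fitted median change was -0.19 for SNRP, -0.13 for LSM, -0.11 for SF3, 0.00 for SRSF, 0.04 for PRPF, 0.03 for U2AF and 0.05 for HNRNP, beside -0.07 for all genes tested. The SD of the family medians between the 3 lines, 0.168 to 0.248, was close to or larger than each of these values.

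**Figure D3:**
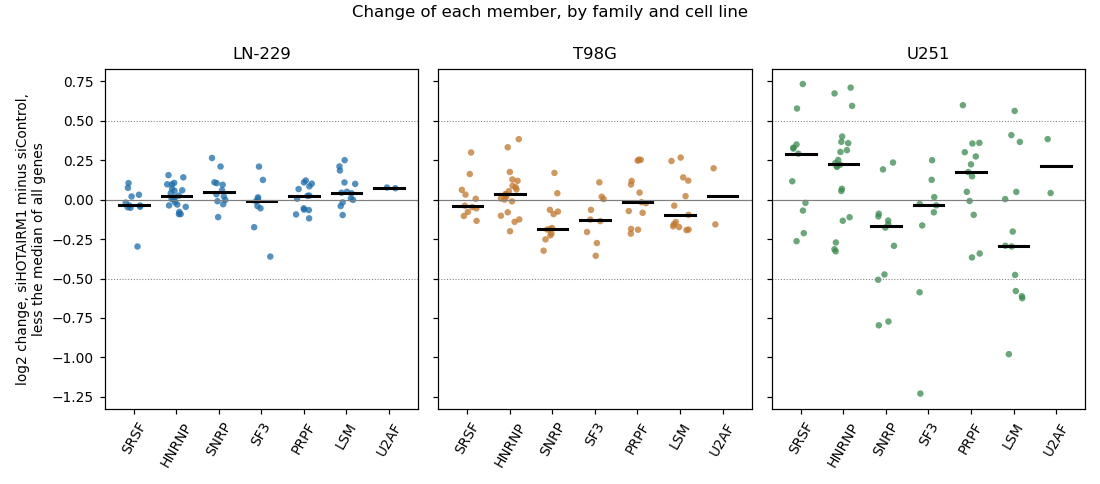
Change of each of the 80 members (siHOTAIRM1 minus siControl, log2, less the median of all genes) by family in LN-229, T98G and U251. Black bars are family medians and dotted lines mark 0.5 in either direction, which no member crossed in LN-229 or T98G and 16 crossed in U251.

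By role in the particle, the 8 Sm core proteins had relative medians of 0.02 (LN-229), -0.18 (T98G) and -0.17 (U251), and 8 of 8 were below the median of all genes in U251. The U251 median of the Sm core was -0.32 when genes were summed with their pseudogene rows and -0.10 after rescaling to equal totals of listed genes. The summed level of the Sm core genes went from 445 to 311 CPM in U251 and from 268 to 198 CPM in T98G, but from 315 to 324 CPM in LN-229. SNRPD2 alone held 183 and 103 CPM of the sums in U251, and 57.0 and 41.7 CPM of those in T98G. The 8 LSM ring genes were also low in U251, with a relative median of -0.53 and 7 of 8 below, beside 0.00 in LN-229 and -0.12 in T98G. Their summed level went from 255 to 172 CPM in U251. The other LSM genes went the other way in U251, with a median of 0.37 and 4 of 5 above. These are LSM10 and LSM11 of the U7 particle, LSM12, and LSM14A and LSM14B of cytoplasmic RNA granules. These role groups were formed with the values known.

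Among the proteins particular to 1 particle, SNRPA1 of U2 gave 9.88 and 10.1 CPM in LN-229, 10.9 and 9.74 CPM in T98G, and 8.77 and 10.3 CPM in U251, with the highest fitted change of its family, 0.03. SF3A2 had 3.92 to 5.68 CPM over all libraries and the highest fitted change of the SF3 subunits, 0.04. The 3 SF3A genes had a relative median of -0.05, 0.02 and -0.03 in LN-229, T98G and U251, and the 6 SF3B genes 0.00, -0.13 and -0.10. SF3B1, the large subunit, went from 220 to 221 CPM in LN-229, from 189 to 158 CPM in T98G and from 288 to 275 CPM in U251.

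In the PRPF family, the fitted changes ran from -0.25 for PRPF18, a factor of the second splicing step (SE 0.144, limma adjusted p = 0.357), to 0.22 for PRPF38B (SE 0.147, limma adjusted p = 0.425). PRPF18 was lower in the siHOTAIRM1 library of 3 of 3 lines, with 8.63 and 7.94 CPM in LN-229, 7.44 and 5.98 CPM in T98G, and 12.97 and 9.82 CPM in U251. PRPF8 gave 221 and 226, 257 and 223, and 230 and 289 CPM in the same order, so that its direction differed between lines. U2AF1, which reads the AG of the 3′ splice site, had a fitted change of 0.15 and U2AF2, which binds the polypyrimidine tract, -0.08. SRSF8 had the lowest SRSF value at -0.21 and HNRNPLL the lowest HNRNP value at -0.21, neither past the test (limma adjusted p = 0.450 and 0.434).

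Transcript length moved with these changes. Across genes, Spearman's rho between canonical transcript length and the change over 13129 genes was -0.03 for LN-229, 0.23 for T98G and 0.31 for U251, and over the 80 members -0.10, 0.38 and 0.41. Genes are not independent replicates, they share each library, and no p is given. Of the 11 members with a transcript under 1000 bases, LN-229 had 5 below the median of all genes, T98G 9 and U251 10. They are LSM1, LSM2, LSM7, LSM10, SF3B5, SF3B6, SNRPC, SNRPD2, SNRPF, SNRPG and U2AF1. Their median change relative to all genes was -0.58 in U251, beside -0.36 for all 1252 tested genes under this length. Removing the trend with length changed the U251 medians from -0.29 to -0.09 for LSM and from -0.17 to -0.08 for SNRP. The LSM ring went from -0.53 to -0.35, whereas the Sm core stayed at -0.17 and SF3 went from -0.04 to -0.07. The medians went from 0.23 to 0.22 for HNRNP, from 0.29 to 0.21 for SRSF, from 0.175 to 0.139 for PRPF and from 0.21 to 0.36 for U2AF. LSM3 has a canonical transcript of 3359 bases and is no short member.

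**Figure D4:**
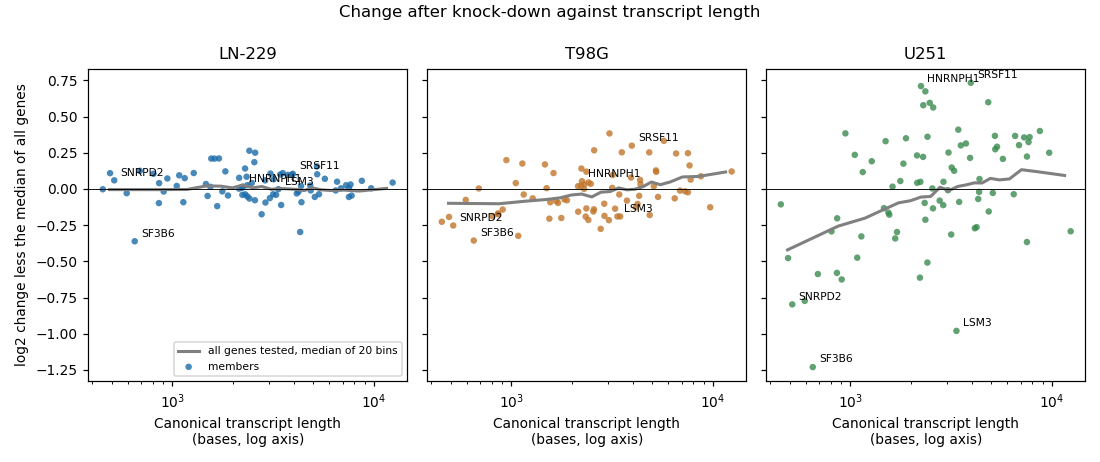
Change less the median of all genes (log2) against canonical transcript length (bases, log axis) in each line, with points for the 80 members and a grey line for the medians of all tested genes in 20 bins of equal size. In T98G and U251 short transcripts lie lower, and SF3B6 and LSM3 lie below the grey line in U251.

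More members were called between the lines than after knock-down. The lines were compared in the same model, over both conditions (2 libraries per line). Of 80 members, 37 were higher and 2 lower in LN-229 than in T98G, beside 30.8% higher and 24.1% lower of all genes. Between LN-229 and U251, 11 were higher and 21 lower in LN-229 (23.9% and 36.7% of all genes). Between T98G and U251, 5 were higher and 43 lower in T98G (23.1% and 41.0% of all genes). The members lower in LN-229 than in T98G were HNRNPA3 and U2AF1. 16 members passed in none of the 3 comparisons, 16 in 1, 41 in 2 and 7 in all 3. The number of comparisons passed was not counted over all genes, so nothing is read from it. The splits into higher and lower depended on the scale. With libraries centred on their medians, 33 members were higher and 3 lower in LN-229 than in T98G. On that scale 20 were higher and 16 lower in LN-229 than in U251, and 11 higher and 32 lower in T98G than in U251. Of all genes, 28.3% and 29.2%, 30.0% and 32.1%, and 31.8% and 32.5% were then higher and lower in the same order. With equal totals of listed genes the members split as 33 and 2, 28 and 8, and 16 and 23, beside 28.9% and 25.8%, 36.4% and 22.4%, and 35.8% and 24.8% of all genes.

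The largest difference was that of SNRPN, an Sm protein expressed from the paternal allele of an imprinted locus on chromosome 15. SNRPN was at 10.3 and 10.7 CPM in LN-229 and at 10.2 and 9.01 CPM in U251, but at 1 read and 0 reads in the T98G libraries, under the limit of 3 reads. It was at least 238-fold higher in LN-229 and at least 208-fold higher in U251 than that limit in T98G, taken per library. SNHG14, which lies on the same strand at this locus, followed the same pattern, as it had 19.5 and 20.7 CPM in LN-229 and 11.1 and 14.2 CPM in U251, but was at 0.0276 CPM or less in T98G. UBE3A, which is further along the locus, was present in T98G at 74.3 and 61.9 CPM. SNRPN shares its transcript with SNURF, so that reads of the pair cannot be split with certainty.

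SNRPB2, the U2B″ protein of the U2 particle, reached 168 and 204 CPM in LN-229, against 34.0 and 25.5 CPM in T98G and 41.6 and 28.4 CPM in U251. The log2 difference was 2.61 from T98G (SE 0.190, limma adjusted p = 2.18e-14) and 2.396 from U251 (SE 0.190, limma adjusted p = 2.44e-13). The libraries of a line are not separate isolates, so these p-values rest largely on the spread of other genes of similar level. For the difference from T98G, the limma adjusted p was 1.7e-06 with libraries centred on their medians and 0.0013 without the filter on level. On chromosome 20 the neighbouring KIF16B was at 30.0 and 29.1 CPM in LN-229, 17.5 and 15.5 CPM in T98G, and 8.06 and 7.78 CPM in U251, whereas DSTN was at 183 and 205, 161 and 115, and 228 and 188 CPM. KIF16B was thus also highest in LN-229, by a smaller factor, and DSTN was not.

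SF3B6, SF3B5 and SNRPD2 were highest in U251. All have transcripts under 1000 bases, and the comparisons between lines were not run with the length trend removed. The part of transcript length and of the U251 siControl library in these differences was not tested. SF3B5, another small SF3B subunit, gave 14.2 and 15.7 CPM in LN-229, 14.4 and 12.5 CPM in T98G, and 56.4 and 36.5 CPM in U251. The U251 values did not overlap the others, with a log2 difference of -1.54 for LN-229 minus U251 and -1.68 for T98G minus U251. SF3B6 differed by 0.93 between LN-229 and T98G, by -1.34 between LN-229 and U251 and by -2.27 between T98G and U251. For SNRPD2 the differences were 0.56, -0.91 and -1.47 in the same order, and all differences of these genes given here passed the test (limma). The difference of SNRPD2 between LN-229 and T98G no longer passed without the filter (limma adjusted p = 0.150) or without the condition term (0.126), nor did that of SF3B6 without the condition term (0.0698). LSM4 likewise reached 68.6 and 54.6 CPM in U251, against 19.6 to 26.4 CPM in the other lines. U2AF1 was highest in T98G, with 61.2 and 61.7 CPM against 33.6 and 35.6 CPM in LN-229 and 24.9 and 32.1 CPM in U251. HNRNPA3 was also highest in T98G, at 123 and 136 CPM against 72.1 to 83.3 CPM in the other 4 libraries. With libraries centred or rescaled, the differences of SF3B5, SF3B6 and SNRPD2 from U251 kept their sign and passed the test.

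**Figure D5:**
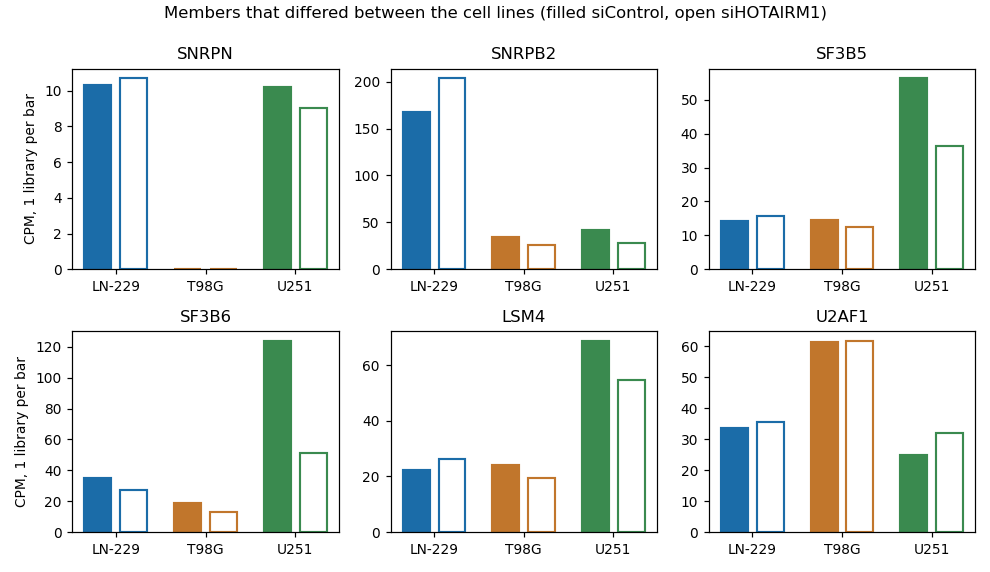
CPM of 6 members that differed between lines, 1 bar per library, siControl filled and siHOTAIRM1 open. SNRPN is at 1 read and 0 reads in T98G, SNRPB2 is highest in LN-229, SF3B5, SF3B6 and LSM4 in U251 and U2AF1 in T98G.

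Other genes of the splicing pathway were followed as 7 lists of 135 genes in all, of which 130 passed the filter. None was called in either direction (limma), and 11 (8.46%, against 18.3% of all genes) had an unadjusted p under 0.05. The 21 catalytic and Prp19 complex genes had a fitted median of -0.22, and the 19 genes of snRNP assembly and maturation, such as the SMN complex, -0.19. The 16 SR-related proteins and SR kinases had 0.10, the 31 other hnRNP-like genes tested 0.07, the 30 other snRNP and spliceosome assembly proteins -0.04, the 5 exon junction genes -0.07 and the 8 decapping partners of the cytoplasmic LSM ring -0.05, beside -0.07 for all genes. The lowest values were those of PHF5A, the SF3B subunit next to the branch site pocket (-0.46, SE 0.153, limma adjusted p = 0.0981), and BCAS2 of the Prp19 complex (-0.45, SE 0.144, limma adjusted p = 0.0904). Neither passed the test.

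Several members have near copies, and their values are uncertain. The 75 pseudogene rows of HNRNPA1 together held 1.96 to 2.16 times the signal of the gene itself, the 9 rows of SNRPE 0.669 to 1.11 times, the 1 row of LSM12 0.443 to 0.525 times, the 20 rows of SNRPG 0.415 to 0.471 times and the 16 rows of HNRNPA3 0.343 to 0.482 times. Summing genes with these rows left 1 member called, SF3B6. The HNRNPCL genes are near copies of HNRNPC, and the hg38 assembly carries a near-identical second copy of U2AF1.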

How the data were processed

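RNA-seq libraries (TruSeq RNA v2, an unstranded kit) of 3 glioblastoma cell lines, siControl and siHOTAIRM1, were analysed from the deposited table. Per the study's methods, the authors removed 13 leading bases and 1 trailing base of each read, aligned with STAR and Bowtie 2 to hg38, and quantified Ensembl release 84 genes by expectation maximization. The deposited values are CPM with 0.0001 added by the authors. Between 83.5 and 84.9% of low values were whole reads within 0.05, too few for a count test, and this step gave the depths. Counting intervals and limits cover counting error only. The 37 rows of mitochondrial DNA genes were all at the added constant.

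The 14294 genes whose mean reached 1 CPM were tested on log2(CPM + 1) with limma 3.58.1's trended moderated test (R 4.3.3) and Benjamini-Hochberg adjustment at 0.05. Cell line was a block, after the study's paired statistic, and condition and line contrasts came from the same model. Same-numbered libraries are the same cell line, and their deviations from the group means correlated at 0.948 to 0.967, against -0.505 to -0.467 for different lines. Deviations from a mean of 3 libraries cancel out, so the negative values follow from the calculation. The pairing itself was given by the labels. Simulated data of 14294 genes for this comparison, with 100 genes changed at each size, gave 44 recovered at a log2 change of 0.5 and 99 at 1. The changed genes had a mean log2 level above 3 and the same change in every line. Noise was independent, with the variances of the model itself. These counts therefore do not give the recovery of low genes or of changes that differ between lines. Lengths and positions came from GENCODE 44 (84 of 84 members matched). Named genes were, per family, the highest level per kilobase and the highest and lowest fitted change, any called member, the 5 largest ranges of change and of level between lines, and members under 3 reads in a library. The members and lists were chosen with earlier results of these data known. Alternatives covered the pseudocount, scaling, filter, block, length, pseudogene rows and leaving out each line.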

Additional observations from a re-analysis of the deposited data

Results flagged for a closer look

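A pair of members moved in opposite directions in different lines, by at least 0.2 on the log2 scale both as measured and after subtracting the median change of the line. SNRPB2 was higher after knock-down in LN-229 (0.28) and lower in T98G (-0.40) and U251 (-0.54), and the relative changes of LN-229 differed by 0.478 from T98G and by 0.772 from U251. LSM4 had a change of 0.22 in LN-229 and of -0.32 in U251, a relative difference of 0.508. Each line has 1 library per condition, so these differences between lines were not tested.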

How the results depend on the processing

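The number of members called after knock-down was 1, beside 286 of all genes. It was 2 with a pseudocount of 0.1 (683 of all genes), a filter at 5 CPM (607) or the length trend removed (639). It was 0 with libraries centred on their medians (8 members with an unadjusted p under 0.05, and 41 of all genes called), and also with equal totals of listed genes (6 members), without the filter (2), without the replicate block (0) and with the ordinary paired statistic per gene in place of limma (2), settings in which 0 of all genes were called. Leaving out each line gave 0 to 1 members called, with 0 when T98G (3 with an unadjusted p under 0.05) or U251 (1) was left out. Of all genes, 270 were called without LN-229, 0 without T98G and 149 without U251. Fitted family medians moved by less than their spread between lines under every alternative run, but several changed sign: with equal totals LSM (0.016), SF3 (0.043) and all members (0.074), all members also when centred (0.017) or without T98G (0.0098), and without U251 HNRNP (-0.067), PRPF (-0.084) and U2AF (-0.041). The SRSF median, near 0, took either sign, from -0.11 without U251 to 0.15 with equal totals. Of 39, 32 and 48 members called between lines, 2, 5 and 18 also differed by at least 1 on the log2 scale, as did 21.3, 24.6 and 27.0% of all genes, and without the filter 16 were called between LN-229 and U251. With the median length of coding transcripts in place of the canonical one, the level per kilobase became 55.0 for SRSF, 36.6 for HNRNP, 38.0 for SNRP, 36.2 for SF3 and 12.4 for LSM. Fitted changes near 0 changed sign for LSM4 (0.016) and U2AF2 (0.066) with equal totals, for PRPF8 (-0.0023) and SNRPN (0.017) with the length trend removed, and for SNRPN when centred (0.034) or with equal totals (0.021). Leaving out each line gave ranges that crossed 0 for HNRNPH1 (-0.055 to 0.36), HNRNPH3 (-0.017 to 0.34), PRPF8 (-0.084 to 0.18), SF3A2 (-0.046 to 0.10), SNRPA1 (-0.058 to 0.12), SNRPN (-0.090 to 0.012), SRSF2 (-0.15 to 0.14) and U2AF2 (-0.17 to 0.052). The causes were not tested. Depth limits statements on members of a few reads, and 1 library per line and condition limits the rest.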

Other observations

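The small nuclear RNAs that these proteins bind were partly present in the libraries. RNU2-1, the RNA of the U2 particle, was at 513 and 516 CPM in LN-229, 337 and 326 CPM in T98G, and 899 and 502 CPM in U251 (siControl and siHOTAIRM1), and RNU1-1 of the U1 particle at 245 and 240, 234 and 266, and 286 and 220 CPM. The U251 siControl library was the highest for both, and neither change passed the test (limma adjusted p = 0.447 and 0.861). Small nuclear RNAs lack a poly(A) tail, so these levels do not describe their amount in the cell.

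HNRNPA2B1, an abundant hnRNP whose symbol lies outside the naming rule, was at 400 and 433 CPM in LN-229, 373 and 370 CPM in T98G, and 249 and 399 CPM in U251. Its higher value in the U251 siHOTAIRM1 library resembles that of HNRNPH1, and the fitted change of 0.26 did not pass the test (limma adjusted p = 0.471).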
